A study of Mus musculus with 9 samples.

Results

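Transcript levels of 10 core circadian clock genes were examined in monocytes taken from mouse spleens: Arntl, Clock, Per1, Per2, Cry1, Cry2, Nr1d1, Nr1d2, Dbp and Tef. They were found by gene symbol among the 46072 gene rows that the count and FPKM tables share, of which 26108 were above 0 in at least 1 library, and each symbol had 1 row. The data came from 9 RNA-seq libraries of female C57BL/6 mice aged 8 to 10 weeks, 3 in each of 3 groups. Con mice received water by gavage for 6 days, and Van mice received vancomycin (2 mg per mouse per day) on the same schedule. VanLip mice received this vancomycin course and then L654, a lipid of Bacteroidota recognised through TLR2 and purified from Porphyromonas gingivalis. It was given by retro-orbital injection on days 7, 9 and 11 in the labels, while the study counts the injection days from the start of the rest. All mice rested without antibiotic before the spleens were taken, for 8 days in the study's account of this cohort and for 6 to 8 days in the labels. For this cohort the study points to a timeline in which PBS or L654 was injected, but it does not state outright that Con and Van mice received PBS. The hour at which the spleens were taken is not given in the sources used here. Vancomycin acts on many gut bacteria and the VanLip group had no arm with L654 alone, so each contrast is between whole schedules.

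The clock is a transcriptional feedback loop that runs in nearly every cell of the body. ARNTL (BMAL1) and CLOCK form a dimer that binds E-boxes and switches on the Period and Cryptochrome genes, whose proteins return to inhibit the dimer, while NR1D1 and NR1D2 (REV-ERB alpha and beta) repress Arntl in a second loop. DBP and TEF carry the rhythm to output genes through D-boxes. In tissues with a running clock Arntl peaks at about the opposite time of day from Nr1d1, Dbp and the Period genes, and in monocytes the clock is known to set daily rhythms of trafficking and cytokine release. Per1 is also switched on directly by glucocorticoids and by cAMP signalling.

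The promoters of several of these genes hold the elements through which the loop closes, and 4 are shown because they stand for its arms: the E-boxes of Per1 and Cry1, the variant E-box of Nr1d1, and the element in Arntl that NR1D1 and the ROR receptors read. Capitals mark the element, the bases run 5′ to 3′ on the strand of the gene, and the sequences are those of RefSeq on GRCm38.p6.
Per1 (chr11:69098756-69098815, plus strand): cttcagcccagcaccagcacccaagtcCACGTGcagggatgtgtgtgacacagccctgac
Cry1 (chr10:85185082-85185141, minus strand): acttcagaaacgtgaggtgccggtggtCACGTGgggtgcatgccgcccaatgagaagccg
Nr1d1 (chr11:98775378-98775432, minus strand): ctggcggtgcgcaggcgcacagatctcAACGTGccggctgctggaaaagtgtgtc
Arntl (chr7:113207528-113207557, plus strand): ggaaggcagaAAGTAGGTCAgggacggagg
The first base of the E-box lay 60 bases before the RefSeq start in Cry1, and in Per1 it lay 166 bases before the first of the 2 RefSeq starts whose windows were searched, which is inside the longer gene span given below. The variant E-box of Nr1d1, read here on its reverse strand, began 28 bases before the RefSeq start, and the Arntl element lay within the first exon.

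Windows of 250 bases before to 50 after a start were searched on both strands, with 14 windows for 9 of the 10 genes and none for Per2. The E-box CACGTG was found in 3 genes (Per1, Cry1 and Tef), in 4 of the 14 windows, and in 7.15% of all 32851 windows of the table. The variant CACGTT was found in 3 genes (Cry1, Cry2 and Nr1d1), in 3 of the 14 windows, and in 4.68% of all windows. The RORE, the element marked above in Arntl, was found in that gene, in 1 of the 14 windows, and in 0.219% of all windows. The D-box (TTATGTAA or TTACGTAA), the cAMP response element TGACGTCA and the heat shock element were in no window of the 10 genes, against 1.06%, 1.79% and 0.603% of all windows.

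The libraries held monocyte transcripts by their markers, since all 12 monocyte genes examined averaged over 1 FPKM in each group. FPKM counts fragments per kilobase of transcript, scaled for library size, and is the scale on which genes are compared here. Red pulp macrophages are a neighbour in the spleen, and all 6 of their genes examined also averaged over 1 FPKM in each group. That threshold therefore does not tell the 2 cell types apart. The summed FPKM of these macrophage genes was 805 to 955 in Con, 911 to 1236 in Van and 846 to 968 in VanLip. For the monocyte genes it was 10631 to 12958 over all libraries. Genes of other cells were present at lower sums: 5 of 6 conventional dendritic cell genes averaged over 1 FPKM in each group, with sums of 83.3 to 120 over the libraries, and of 8 neutrophil genes 3, 2 and 2 did in Con, Van and VanLip, with sums of 2.15 to 12.6 and Ly6g listed at 0 throughout. Of 5 platelet genes 4, 4 and 3 averaged over 1 FPKM, with sums of 4.77 to 22.2. Of 4 plasmacytoid dendritic cell genes 3, 2 and 3 did, with sums of 68.9 to 81.1 in Con, 75.2 to 84.4 in Van and 76.2 to 103 in VanLip. The highest sums were 12.7 for B cell, 16.2 for T cell, 0.964 for NK cell and 24.7 for eosinophil genes. Red cell transcripts moved with the groups: the summed FPKM of 6 erythroid genes was 57.1 to 115 in Con, 189 to 431 in Van and 155 to 642 in VanLip. Of these 6 genes 2, 3 and 5 averaged over 1 FPKM in the 3 groups, none was at 0 throughout, and their part in the results below was not tested. Total expected counts were 43070361 to 61383806 per library in Con and Van and 170503470 to 184720704 in VanLip, and the smallest counts fit reads of 100 bases in Con and Van and of 150 bases in VanLip. The second length is inferred and goes against the sources used here, which give 1 length for all libraries, that found in Con and Van, and the fragment totals of VanLip and the fit on thinned fragments rest on it. Depth and this inferred length cannot be told apart from L654 in any contrast with VanLip. In bulk RNA, fewer cells that express a gene and less RNA per cell cannot be told apart.

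All 10 genes were detected in all 9 libraries, and Per1 was the highest by far. Its level was 91.5 ± 5.40 FPKM in the Con libraries, 111 ± 13.5 FPKM after vancomycin and 55.6 ± 8.16 FPKM after vancomycin with L654 (mean ± SD, n = 3 in each group), which placed it at the 97.5th percentile of detected genes in Con. Below it in Con came Tef, Nr1d2, Clock, Arntl, Cry1, Dbp, Nr1d1, Cry2 and Per2, with means running from 14.6 FPKM for Tef to 0.577 FPKM for Per2. Neighbours in this order overlapped between their libraries for Arntl and Cry1, for Cry1 and Dbp, and for Nr1d1 and Cry2. Per1 thus stood far above its paralog Per2, and Nr1d2 above Nr1d1, in every group. In Van the order from the second to the fourth place was Tef, Nr1d2 and Cry1, with Tef and Nr1d2 overlapping. Cry1 also overlapped Clock, the next below it, with means of 6.36 and 6.34 FPKM. In VanLip Per1 still had no library below the highest Tef value, 46.7 FPKM against 22.1 FPKM.

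**Figure D1:**
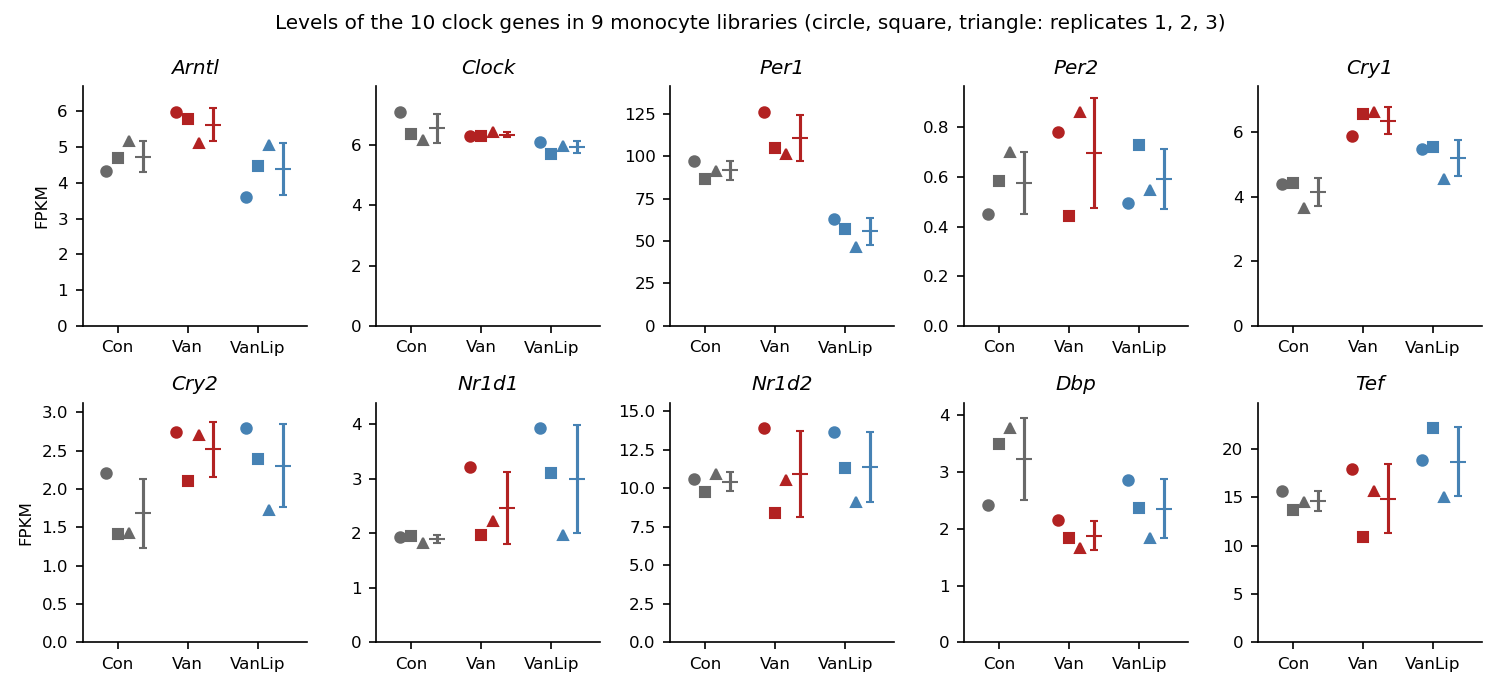
FPKM of each clock gene (vertical axis, from 0) in the 3 libraries of Con, Van and VanLip (horizontal axis), with the mean and SD at the right of each group. Per1 is lower in all 3 VanLip libraries (46.7 to 62.8 FPKM) than in any other library, Cry1 is higher and Dbp lower in all Van than in all Con libraries, and Nr1d1, Nr1d2 and Tef spread widely in Van and VanLip.

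Of the 2 Period genes among the 10, Per1 (ENSMUSG00000020893, GRCm38 chromosome 11, 69095217 to 69109960) was the one that passed the test in a contrast. Its normalized count, the expected count divided by the size factor of the library, was 37756, 33743 and 35120 in the Con libraries, 50153, 40092 and 39305 in the Van libraries and 23680, 21351 and 17231 in the VanLip libraries. The 3 groups did not overlap, with Van highest and VanLip lowest. For VanLip against Van, Per1 fell by 1.06 on the log2 scale (SE 0.13), 2.08-fold, with a DESeq2 adjusted p of 5.48e-14 after Benjamini-Hochberg adjustment over all genes. It was the 1 gene of the 10 called in that contrast, where 9.85% of all 18035 genes with an adjusted p were called. For VanLip against Con it fell by 0.78 (SE 0.13), 1.71-fold, with a DESeq2 adjusted p of 3.07e-07, again as the 1 gene of 10 called, against 6.67% of 16565 genes. For Van against Con its log2 fold change was 0.28 (SE 0.13), with a DESeq2 adjusted p of 0.25, and it was 0.16 without Van replicate 1 and 0.28 with a DESeq2 adjusted p of 0.0487 when only the 2 groups were fitted. Both calls for VanLip held in all 20 alternatives, with log2 values of -1.16 to -0.94 against Van and -0.88 to -0.66 against Con. After the VanLip fragments were thinned to the depth of the other libraries the values were -1.03 (DESeq2 adjusted p = 8.01e-14) and -0.75 (5.76e-07).

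Per2, the paralog whose transcription heat shock factor also drives, had the lowest FPKM of the 10 clock genes in each group, near the middle of all detected genes. Its normalized counts were 253, 327 and 384 in Con, 438, 242 and 480 in Van and 277, 396 and 302 in VanLip. The groups overlapped, and no contrast passed the test, with log2 fold changes of 0.27 (95% interval -0.27 to 0.81) for Van against Con, 0.018 (-0.52 to 0.55) for VanLip against Con and -0.25 (-0.78 to 0.28) for VanLip against Van. The first of these intervals includes the log2 fold change of Cry1 in the same contrast, 0.60. For Van against Con the value of Per2 ran from 0.086 without Van replicate 3 to 0.52 without Van replicate 2. For VanLip against Van it ran from -0.50 without Van replicate 2 to -0.066 without Van replicate 3, and none of these was called.

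The Cryptochromes, which carry most of the inhibition of the dimer, both had higher means in Van and VanLip than in Con. Cry1 (ENSMUSG00000020038, chromosome 10, 85131700 to 85185064) stood at 1285, 1284 and 1039 normalized counts in Con, 1704, 1851 and 1913 in Van and 1581, 1566 and 1298 in VanLip. No library of Van reached down to Con, and VanLip lay between them without overlap on either side. For Van against Con, Cry1 rose by 0.60 on the log2 scale (SE 0.13), 1.51-fold, with a DESeq2 adjusted p of 2.41e-04. Together with Dbp, below, it made 2 of the 10 genes called in that contrast, against 4.33% of 18526 genes, with 1 higher against 2.27% and 1 lower against 2.06% of genes. In VanLip its log2 fold changes were 0.30 against Con (SE 0.12) and -0.30 against Van (SE 0.12), with DESeq2 adjusted p of 0.136 and 0.105, and the former ran from 0.21 without Con replicate 3 (DESeq2 adjusted p = 0.475) to 0.39 without VanLip replicate 3 (DESeq2 adjusted p = 0.0305). The call for Van held in 17 of 20 alternatives, edgeR's quasi-likelihood test (adjusted p = 0.0395) and each left-out library included, and was lost in the 3 fits of limma on log2 FPKM, where the adjusted p was 0.0506 to 0.11.

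Cry2 was less abundant and more variable. Its normalized counts were 755, 483 and 496 in Con, 947, 703 and 863 in Van and 940, 834 and 616 in VanLip. Con replicate 1 lay within the range of Van and VanLip, and the log2 fold changes against Con were 0.54 in Van (SE 0.22, DESeq2 adjusted p = 0.168) and 0.46 in VanLip (SE 0.22, DESeq2 adjusted p = 0.213). Without that library they were 0.78 and 0.70, with DESeq2 adjusted p of 0.0153 and 0.0313, and over the other left-out libraries they went down to 0.42 (Con replicate 2) and 0.33 (VanLip replicate 1), neither called.

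Arntl and Clock, the activators, were steadier. Arntl had 1220, 1312 and 1420 normalized counts in Con, 1673, 1567 and 1420 in Van and 1005, 1216 and 1387 in VanLip. Its Van libraries lay just above Con, the closest values being 1420.2 and 1419.7, and above all VanLip libraries. The log2 fold change was -0.37 for VanLip against Van (SE 0.14, DESeq2 adjusted p = 0.0608), 0.24 for Van against Con (SE 0.14, DESeq2 adjusted p = 0.433) and -0.13 for VanLip against Con (SE 0.14, DESeq2 adjusted p = 0.687). Without VanLip replicate 3, whose Arntl was the highest of its group, the first of these was -0.48 and passed the test (DESeq2 adjusted p = 0.00721), and without VanLip replicate 1 it was -0.26 and did not (DESeq2 adjusted p = 0.24). The value for VanLip against Con ran from -0.25 without VanLip replicate 3 to -0.016 without VanLip replicate 1. That for Van against Con ran from 0.18 without Van replicate 1 to 0.30 without Van replicate 3, and none of these was called.

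Clock had the smallest spread of the 10 genes over the 9 libraries, at 7.64% of its mean. It had 5387, 5256 and 4753 normalized counts in Con, 4964, 4825 and 5002 in Van and 4651, 4213 and 4463 in VanLip, so that VanLip was lowest without overlap. The log2 fold changes were small, -0.21 for VanLip against Con (SE 0.075, DESeq2 adjusted p = 0.0668) and -0.15 for VanLip against Van (SE 0.075, DESeq2 adjusted p = 0.22). The former was -0.17 without VanLip replicate 2 (DESeq2 adjusted p = 0.316) and passed the test without Con replicate 3 (-0.26, DESeq2 adjusted p = 0.0304) and after thinning of the VanLip fragments (-0.25, DESeq2 adjusted p = 0.0436).

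The repressors of the second loop, Nr1d1 and Nr1d2, differed between libraries of 1 group more than between groups. Nr1d1 was at 477, 504 and 462 normalized counts in Con, 822, 477 and 482 in Van and 984, 781 and 501 in VanLip. A total of 3 libraries, Van replicate 1 and VanLip replicates 1 and 2, stood well above the other 6, which lay between 462 and 504. The coefficient of variation was 4.45% in Con, 33.3% in Van and 32.1% in VanLip. The log2 fold change for VanLip against Con was 0.65 (SE 0.26, DESeq2 adjusted p = 0.127), and it ran from 0.41 without VanLip replicate 1 (DESeq2 adjusted p = 0.46) to 0.87 without VanLip replicate 3, where it passed the test (DESeq2 adjusted p = 0.00884). For Van against Con it was 0.30 (SE 0.27, DESeq2 adjusted p = 0.706) and for VanLip against Van 0.35 (SE 0.26, DESeq2 adjusted p = 0.508), and the former was -0.0054 without Van replicate 1. The latter was 0.11 without VanLip replicate 1, 0.21 without Van replicate 2, 0.22 without Van replicate 3, 0.57 without VanLip replicate 3 and 0.66 without Van replicate 1, and was called in none of these. Nr1d1 shares 263 exon bases with Thra, the thyroid hormone receptor gene on the other strand, which stood at 5.24, 5.82 and 7.87 FPKM in Con, Van and VanLip. The kit marks strand, but whether the counting used it is not stated.

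Nr1d2 had 4297, 4145 and 4357 normalized counts in Con, 5861, 3376 and 4423 in Van and 5641, 4624 and 3739 in VanLip. Its Con libraries agreed to 2.56% of their mean, while both other groups reached above and below them, with coefficients of variation of 27.4% in Van and 20.4% in VanLip. The log2 fold changes were between 0.036 and 0.13 in the 3 contrasts, none passing the test (DESeq2 adjusted p of 0.789 to 0.957), and turned to -0.13 for Van against Con without Van replicate 1.

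Of the output factors, Dbp (ENSMUSG00000059824, chromosome 7, 45705088 to 45710203) was lower in Van. Its normalized counts were 403, 518 and 568 in Con, 329, 267 and 269 in Van and 448, 336 and 293 in VanLip. Each Van library lay below each Con library, and VanLip overlapped both. Dbp fell by 0.78 on the log2 scale for Van against Con (SE 0.22), 1.72-fold, with a DESeq2 adjusted p of 0.0126. This call was lost with edgeR's quasi-likelihood test (adjusted p = 0.103), in the 3 limma fits (0.144 to 0.282) and when DESeq2 was run without 1 of 4 libraries, Con replicate 2 (0.0741) or 3 (0.134) or Van replicate 2 (0.106) or 3 (0.0947), and the sign was the same in all 20 alternatives. For VanLip against Con the log2 fold change was -0.47 (SE 0.21, DESeq2 adjusted p = 0.187), and it ran from -0.66 without VanLip replicate 1 (DESeq2 adjusted p = 0.0404) to -0.34 without VanLip replicate 3 (DESeq2 adjusted p = 0.42). Dbp shares 539 exon bases with Sphk2 on the other strand, which was the more abundant of the pair at 13.5, 14.1 and 16.4 FPKM.

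Tef, of the same family of D-box factors as Dbp, was not called in any contrast. It was at 5063, 4596 and 4714 normalized counts in Con, 5839, 3718 and 5182 in Van and 6253, 7020 and 4700 in VanLip, with all groups overlapping. The log2 fold change was 0.037 for Van against Con (SE 0.17, DESeq2 adjusted p = 0.974), 0.32 for VanLip against Con (SE 0.17, DESeq2 adjusted p = 0.292) and 0.29 for VanLip against Van (SE 0.17, DESeq2 adjusted p = 0.346). The first turned to -0.11 without Van replicate 1, and the second ran from 0.19 without VanLip replicate 2 (DESeq2 adjusted p = 0.752) to 0.47 without VanLip replicate 3 (DESeq2 adjusted p = 0.0444). The third was 0.12 without Van replicate 2, 0.16 without VanLip replicate 2, 0.43 without Van replicate 1 and 0.43 without VanLip replicate 3, and was called in none of these.

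**Figure D2:**
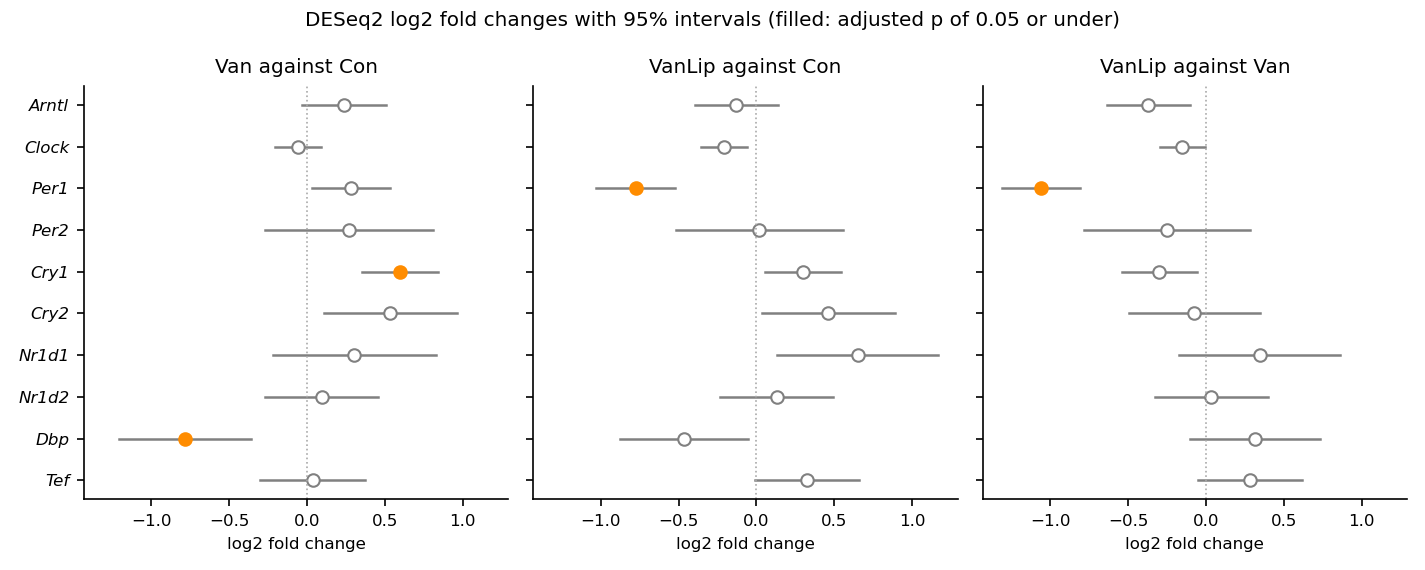
DESeq2 log2 fold changes (horizontal axis) with 95% intervals for the 10 genes (vertical axis) in the 3 contrasts, filled where the adjusted p was 0.05 or under. Cry1 (0.60) and Dbp (-0.78) are filled for Van against Con, and only Per1 for VanLip against Con (-0.78) and against Van (-1.06).

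Taking the 3 groups at once, the DESeq2 likelihood-ratio test called 3 of the 10 genes, against 13.5% of 16565 genes. They were Per1 (adjusted p = 3.02e-13), Cry1 (3.23e-04) and Dbp (0.0143). At an unadjusted p under 0.05 there were 4 of 10 for Van against Con, 6 of 10 for VanLip against Con and 4 of 10 for VanLip against Van, where 11.1%, 13.0% and 15.5% of the 25420 genes tested were under that level. That set has no minimum count and so includes weakly expressed genes, whereas the lowest mean of the 10 was 344 normalized counts (Per2). Groups did not overlap for 4, 3 and 4 of the 10 genes in these contrasts, against 24.1%, 24.5% and 28.6% of the 13503 genes that averaged 50 or more normalized counts. The median log2 fold change of the 10 genes was 0.25, 0.074 and -0.11, against -0.0065, 0.0083 and 0.011 over all genes tested.

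Per1 is a known target of the glucocorticoid receptor, and of 10 other such targets 3 were called for Van against Con, each of them higher in Van, against 2.27% of all genes as given above. For VanLip against Con 4 of the 10 were called, each lower, where 3.69% of all genes were called lower and 2.98% higher. For VanLip against Van 7 of the 10 were called, each lower, where 5.27% of all genes were called lower and 4.58% higher. The median of the 10 was 0.41, -0.26 and -0.81 in these contrasts. The counts moved with the test: over 20 alternatives they ranged from 1 to 4, from 0 to 5 and from 2 to 8. The list was chosen with earlier results of these data known, so its counts are a description.

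Klf9, a glucocorticoid-induced repressor, went the same way as Per1 in the VanLip contrasts. It had 3987, 4251 and 4487 normalized counts in Con, 7751, 6765 and 7982 in Van and 2827, 2873 and 2127 in VanLip, with no overlap between any of the groups. It rose by 0.82 on the log2 scale in Van (SE 0.12, DESeq2 adjusted p = 2.63e-08) and fell by 1.52 from Van to VanLip (SE 0.12, DESeq2 adjusted p = 1.24e-31). It fell by 0.70 for VanLip against Con (SE 0.12, DESeq2 adjusted p = 2.87e-06). Fkbp5, a chaperone of the receptor, had the widest range of the 4 described here, with 1297, 1924 and 1281 normalized counts in Con, 8585, 8816 and 14811 in Van and 2797, 3277 and 1714 in VanLip. It rose by 2.84 in Van (SE 0.35, DESeq2 adjusted p = 6.21e-13) and fell by 2.05 from Van to VanLip (SE 0.35, DESeq2 adjusted p = 3.59e-07). Its log2 fold change for VanLip against Con was 0.79 (SE 0.35, DESeq2 adjusted p = 0.172), the opposite sign to Per1 and Klf9, and that of Zbtb16 was -0.050 (SE 0.16, DESeq2 adjusted p = 0.924). The transcription factor gene Zbtb16 rose by 0.63 in Van (SE 0.16, DESeq2 adjusted p = 0.00477), and Tsc22d3, which encodes the glucocorticoid-induced leucine zipper protein, fell by 0.95 from Van to VanLip (SE 0.18, DESeq2 adjusted p = 5.14e-06) and by 0.61 for VanLip against Con (SE 0.18, DESeq2 adjusted p = 0.0148).

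**Figure D3:**
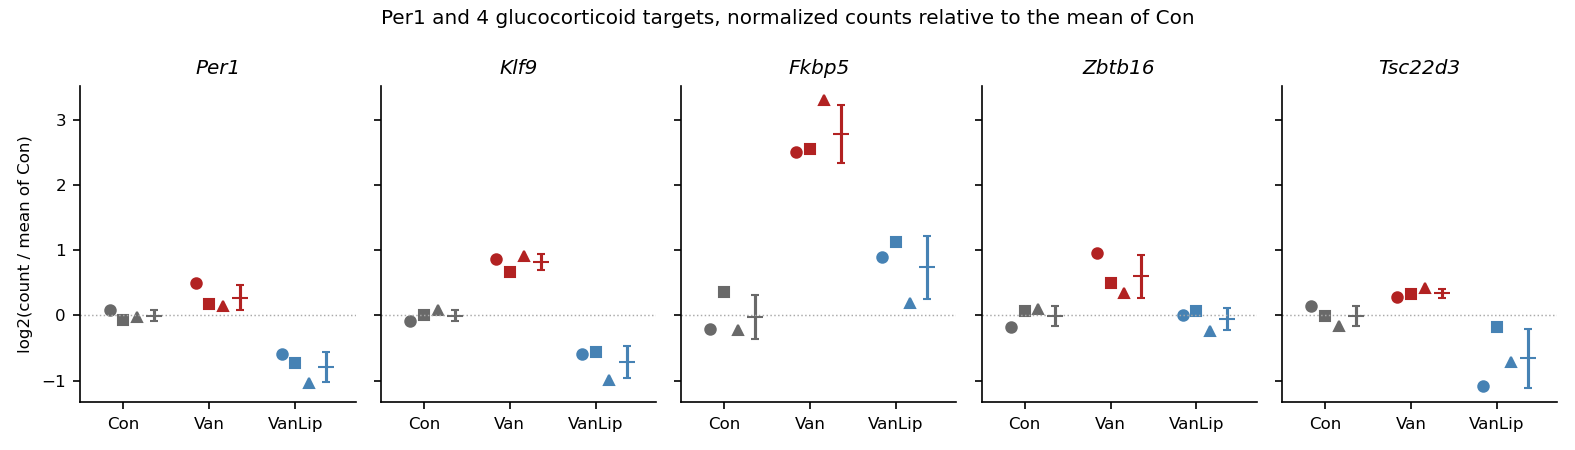
Normalized counts of Per1 and 4 other glucocorticoid targets, picked from those called in a contrast, as log2 ratios to the mean of Con (vertical axis) in each library of Con, Van and VanLip, with mean and SD. In each panel every Van library lies above every VanLip library, and for Per1, Klf9 and Tsc22d3 every VanLip library also lies below every Con library, while for Fkbp5 the VanLip mean lies above that of Con.

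Further lists of genes that respond to extracellular signals and to temperature were read in the same fit. They too were chosen with earlier results of these data known. Of 15 immediate early genes 1 was called for Van against Con, where 4.33% of all genes were called, and this was Crem, the cAMP-induced repressor, which rose by 0.74 on the log2 scale (SE 0.14, DESeq2 adjusted p = 1.76e-05). For VanLip against Con 3 were called, each lower, against 6.67% of all genes, and for VanLip against Van 6 were called, 5 lower and 1 higher, against 9.85%, with Crem lower by a log2 value of -1.04 (SE 0.13, DESeq2 adjusted p = 1.68e-12) and Atf3, a stress-induced factor, by -0.55 (SE 0.097, DESeq2 adjusted p = 1.01e-06). In the limma fits over all genes the first of these counts was 0, and the third was 3 with edgeR and with limma. Of 12 heat shock genes 8 rose in Van, against 2.27% of all genes called higher, 3 fell for VanLip against Con, against 3.69% called lower, and 10 fell for VanLip against Van, against 5.27% called lower. Those were all the calls of the list, and the limma fits called 3 or 4 of them in Van. Hsph1, a chaperone of that list, rose by 1.75 in Van (SE 0.15, DESeq2 adjusted p = 1.77e-26). Of 3 cold-induced RNA-binding genes, Rbm3 and Srsf5 rose from Van to VanLip by 0.44 (SE 0.13, DESeq2 adjusted p = 0.0156) and 0.32 (SE 0.11, DESeq2 adjusted p = 0.0477), where 4.58% of all genes were called higher, and both calls were lost with edgeR. The third, Cirbp, had a log2 fold change of 0.46 (SE 0.17, DESeq2 adjusted p = 0.0562), and in each of the other contrasts DESeq2 and edgeR called 0 of the 3, with 1 at an unadjusted DESeq2 p under 0.05.

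The wider clock pathway was represented by 32 further genes, of which 31 were detected. In Van 1 rose and 1 fell, 2 of the 31 tested against 4.33% of all genes: Prkaa1, the AMPK catalytic subunit, by 0.23 (SE 0.076, DESeq2 adjusted p = 0.0499), and Tipin, the partner of Timeless, by -0.52 (SE 0.15, DESeq2 adjusted p = 0.0235). For VanLip against Con 2 of the 30 tested fell, a share at the level of the 6.67% called over all genes, and these were Nampt (-0.36, SE 0.11, DESeq2 adjusted p = 0.0261) and Sirt1 (-0.25, SE 0.071, DESeq2 adjusted p = 0.0132), which encode the enzyme that makes the NAD precursor and an NAD-dependent deacetylase. For VanLip against Van 6 fell and 1 rose of the 31 tested, against 9.85% of all genes, and the one that rose was Tipin (0.58, SE 0.15, DESeq2 adjusted p = 0.00257). The 6 that fell had log2 fold changes of -1.24 to -0.16, the largest fall being that of Wee1, the kinase that holds back entry into mitosis (-1.24, SE 0.32, DESeq2 adjusted p = 0.00227), followed by Prkaa1 (-0.30, SE 0.075, DESeq2 adjusted p = 0.00203), and Sirt1 was among them (-0.24, SE 0.070, DESeq2 adjusted p = 0.0102). The medians of the list were 0.046, -0.068 and -0.064 in these contrasts, and with edgeR the counts called were 0, 0 and 3. Rora, the activator that competes with NR1D1 for the element of Arntl, had log2 fold changes of 0.23 for Van against Con (SE 0.15), -0.17 for VanLip against Con (SE 0.15) and -0.40 for VanLip against Van (SE 0.14, DESeq2 adjusted p = 0.0554). Per3, the third Period gene, was at 0.367 ± 0.0787 FPKM in Con, 0.434 ± 0.105 FPKM in Van and 0.553 ± 0.171 FPKM in VanLip (SD, n = 3 for each group), and no contrast of it was called.

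The relation between the limbs of the loop was followed within each library, as the mean log2(FPKM + 1) of Arntl and Clock minus that of the other 8 genes. Since the hour of collection is not given, these values are a snapshot per mouse and not a phase. The difference was -0.056, -0.038 and -0.024 in Con, -0.21, 0.10 and -0.13 in Van and -0.44, -0.28 and 0.13 in VanLip. Means with SD were -0.039 ± 0.016 for Con, -0.080 ± 0.16 for Van and -0.20 ± 0.29 for VanLip (n = 3 in each group), so the 3 groups overlapped and VanLip had the widest range. Arntl minus Nr1d1 on the same scale was 0.87 to 1.13 in Con, 0.73 to 1.19 in Van and -0.094 to 1.03 in VanLip. Arntl minus Dbp was 0.34 to 0.64 in Con and 1.15 to 1.25 in Van, which did not overlap, and 0.26 to 1.09 in VanLip. Arntl minus Per2 was 1.85 to 1.88 in Con, 1.72 to 2.23 in Van and 1.62 to 1.97 in VanLip.

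**Figure D4:**
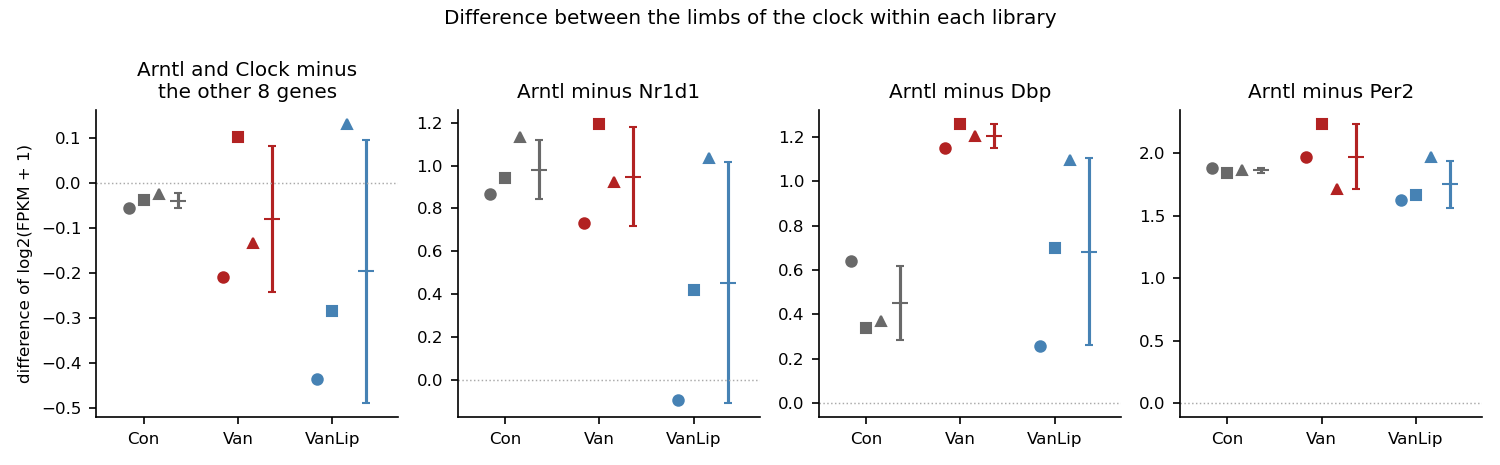
Differences of log2(FPKM + 1) within each library (vertical axis) for the 2 activators minus the other 8 genes and for Arntl minus Nr1d1, Dbp and Per2, by group, with mean and SD. Con libraries lie close together in the first panel (-0.056 to -0.024), VanLip libraries range from -0.44 to 0.13, and Van lies above Con without overlap only for Arntl minus Dbp.

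The order of the libraries within a group was alike for several genes. In Van, replicate 1 was the highest library for 7 of the 10 genes and replicate 2 the lowest for 7, whereas over all 13503 genes that averaged 50 or more normalized counts replicate 1 was highest for 35.4% and replicate 2 lowest for 30.4%. In VanLip, replicate 1 was highest for 7 and replicate 3 lowest for 7, against 35.3% and 36.0% of those genes. Arntl ran the other way in VanLip, lowest in replicate 1 and highest in replicate 3, the reverse of Cry1, Cry2, Per1, Nr1d1, Nr1d2 and Dbp. In Van it did not, since replicate 1 held the highest Arntl of its group as well. In Con no replicate was highest for more than 5 genes.

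Over the 9 libraries 45 pairs of genes were correlated on log2(FPKM + 1), and none passed a threshold of 0.05 after Benjamini-Hochberg adjustment of exact permutation p-values, by Pearson or by Spearman. At an unadjusted Pearson p under 0.05 there were 6 pairs. Nr1d2 and Tef had r = 0.75 (exact permutation p = 0.0214, adjusted 0.198) and rho = 0.80 (exact permutation p = 0.0138), with r = 0.79 after the 2 most distant libraries were left out and r = 0.93 over the 6 Con and Van libraries (exact permutation p = 0.0264, adjusted 0.3). Cry1 and Dbp ran against each other, with r = -0.74 (exact permutation p = 0.0265, adjusted 0.198) and rho = -0.77 (exact permutation p = 0.0214), r = -0.61 without the 2 most distant libraries and r = -0.93 over Con and Van. Cry1 and Cry2 had r = 0.76 (exact permutation p = 0.021, adjusted 0.198) and rho = 0.57 (exact permutation p = 0.121), r = 0.73 without the 2 most distant libraries and r = 0.77 over Con and Van (exact permutation p = 0.11, adjusted 0.549). The pair of Cry1 and Dbp includes the difference between Con and Van in both genes. The pair of Cry1 and Cry2 likewise includes the higher means of both genes in Van and VanLip than in Con. Neither coefficient separates this from variation between libraries of 1 group. Within the VanLip libraries alone, 3 in number, no coefficient was computed. For Nr1d1 the libraries fell into a group of 6 and a group of 3, so no pooled coefficient is given for the 3 pairs with it, and in the 3 libraries with high Nr1d1 the Arntl count was the highest of all 9 (1673, Van replicate 1), the lowest of all 9 (1005, VanLip replicate 1) and 1216 (VanLip replicate 2).

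**Figure D5:**
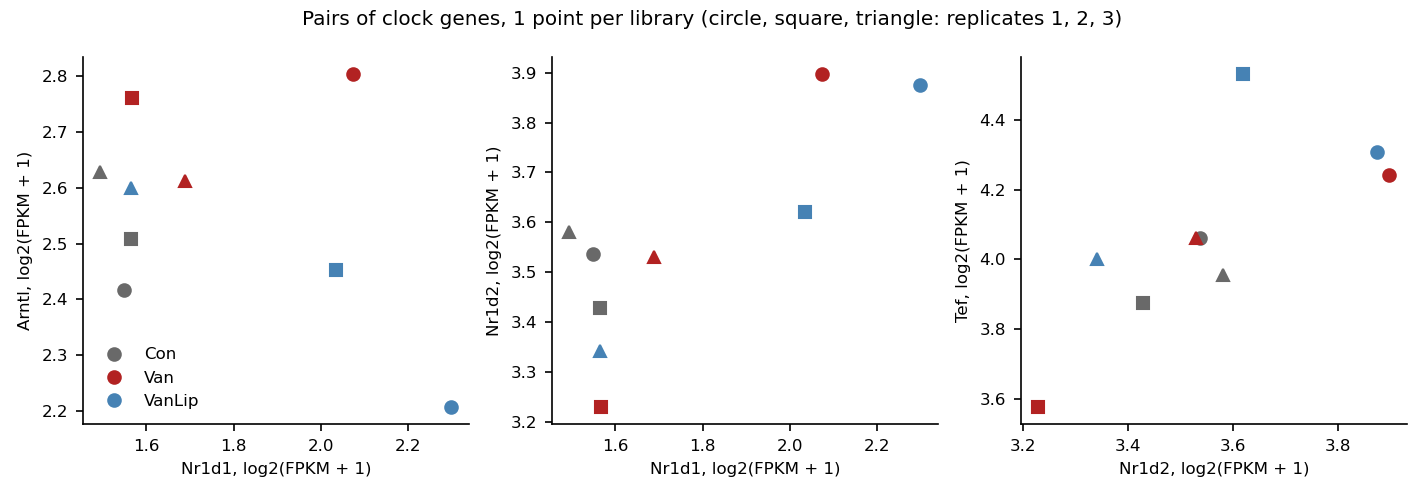
Levels as log2(FPKM + 1) of Arntl against Nr1d1, Nr1d2 against Nr1d1 and Tef against Nr1d2, with 1 point per library, coloured by group and shaped by replicate. Among the 3 libraries with high Nr1d1 are those with the highest and the lowest Arntl, and these 3 libraries also have the 3 highest Nr1d2 values, while Tef goes up with Nr1d2 (r = 0.75).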

How the data were processed

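Each library was assigned by its title to Con, Van or VanLip. Per the labels and the study's methods, paired reads were aligned to GRCm38 with HISAT2 2.2.1, and the authors estimated FPKM values with StringTie 2.1.3 and deposited them per gene. Expected counts, converted by the authors with tximport from that output, were deposited as a second table. The annotation release and the use of strand in counting are not given in the sources used here.

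For this work the expected counts were rounded and fitted with DESeq2 1.42.0 (Wald test, R 4.3.3) over all 9 libraries, with group as the only term and genes above 0 in at least 1 library. Genes were called where the p adjusted over all genes (Benjamini-Hochberg, two-sided) was 0.05 or under. With simulated counts for 24233 genes and 200 changed genes in Van against Con, the test called 169 of the 200 and 40 others, so 19.1% of its calls were false. The commonest low count gave the read length, as tximport assumes 75 bases. By these lengths, of which that of VanLip differs from the single length stated for the series, there were 16151385 to 23018927 fragments per Con or Van library and 42625868 to 46180176 per VanLip library. No source says whether replicates shared a cage or day, and p-values measure the spread between these mice.

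Alternatives were edgeR 4.0.16 (quasi-likelihood), TMM library sizes, at least 10 counts in at least 3 libraries, no independent filtering, only the 2 groups compared, a replicate block, fragments, thinned fragments, limma 3.58.1 on quantile-normalized log2(FPKM + 1), on log2(FPKM + 0.1) or on genes with a mean FPKM of at least 1, and each library left out. All 10 clock genes were named, and of the other lists at most 4 genes each that passed the test in a contrast. Rora, Per3, Cirbp, Cebpd and Dusp1, which did not pass, and Wee1, the fifth of its list, were named after their values were seen. The genes and lists were chosen with earlier results of these data known, and the alternatives for the lists were added after the data were seen. Coordinates are on GRCm38. Correlations used exact permutation of pairings, two-sided.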

Additional observations from a re-analysis of the deposited data

How the results depend on the processing

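The fits differed widely in how many genes they called in all, 36 to 990 for Van against Con (803 as reported, 204 with edgeR), 193 to 1276 for VanLip against Con (1105, 300 with edgeR) and 613 to 1822 for VanLip against Van (1777, 855 with edgeR). Of 597 log2 fold changes of the clock genes, 30 values under 20 alternatives less the 3 of Per2 in the limma fit on genes with a mean FPKM of at least 1, which it did not reach, 561 kept sign and side of the threshold, 11 lost and 10 gained a call, and 15 changed sign, none of them a called value. The cause of these changes was not tested. Depth and read length limit both VanLip contrasts.

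Counts of clock genes called, in the order Van against Con, VanLip against Con and VanLip against Van, ranged from 1 to 3, 1 to 4 and 1 to 2 without 1 library, and from 2 to 7 for any difference, the upper values of the last 3 being without VanLip replicate 3. With edgeR the count for Van against Con was 1 and in the 3 limma fits 0, any difference gave 1 in the 2 limma fits with all genes, and thinned fragments gave 2 for VanLip against Con. Tef for Van against Con was -0.022, -0.025 and -0.022 in the limma fits (pseudocounts of 1 and 0.1, and mean FPKM of at least 1), and Per2 for VanLip against Con -0.091 with thinned fragments. Without 1 library Nr1d1 (-0.0054 to 0.44), Nr1d2 (-0.13 to 0.27) and Tef (-0.11 to 0.20) changed sign for Van against Con, Per2 (-0.15 to 0.16) and Nr1d2 (-0.029 to 0.27) for VanLip against Con, and Cry2 (-0.21 to 0.081) and Nr1d2 (-0.14 to 0.26) for VanLip against Van. The limb difference of Van minus Con was -0.060 on normalized counts and -0.059 with a pseudocount of 0.1 (-0.04 as reported), and that of VanLip minus Con -0.24 and -0.21 (-0.16 as reported).

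For the further clock genes, counts for Van against Con were 0 with edgeR, fragments, thinned fragments and limma, 1 without independent filtering and 4 with only the 2 groups. For VanLip against Con they were 0 with edgeR, only the 2 groups and limma over all genes, and 1 with thinned fragments and limma at a mean FPKM of at least 1. For VanLip against Van they were 3 with edgeR and 2 with limma. Glucocorticoid targets counted 1 in Van with limma over all genes, 1 with edgeR, 0 and 1 with limma (pseudocounts of 1 and 0.1) and 1 with the FPKM filter for VanLip against Con, and 2 with limma over all genes for VanLip against Van. Immediate early genes counted 2 in Van with only the 2 groups and 0 with limma over all genes, 1 with limma over all genes for VanLip against Con, and 3 with edgeR and limma for VanLip against Van. Heat shock genes counted 3, 3 and 4 in Van with limma. Cold-induced genes counted 0 with edgeR and limma and 1 without independent filtering and with thinned fragments for VanLip against Van. Without 1 library the counts in the 3 contrasts were 0 to 4, 0 to 2 and 2 to 7 for further clock genes, 2 to 4, 2 to 5 and 6 to 8 for glucocorticoid targets, 1 to 2, 2 to 4 and 4 to 7 for immediate early genes, 7 to 9, 3 to 6 and 9 to 10 for heat shock genes and 0 to 1, 0 and 0 to 3 for cold-induced genes.

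Whether replicate numbers mark a shared cage or day is not known. Deviations of same-numbered libraries correlated at -0.065 to 0.12, with 1 of 9 such pairs over 0.1. Of the 9 libraries 1 correlated best with its own number. With 3 libraries in each group these values cannot exclude a shared cage or day. With the replicate number as a block the clock genes called numbered 2, 1 and 1 in the 3 contrasts and 4 for any difference. The block gave 932, 1146 and 1644 genes in all, further clock genes then counted 0, 1 and 4, and immediate early genes 2 in Van.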

Other observations

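The genes whose log2(FPKM + 1) followed a clock gene most closely over the 9 libraries were read as a description, among 11709 genes with a mean FPKM of at least 1. These libraries differ in depth and group, and the coefficients carry no p. For Arntl the 5 closest were Wnk1 (r = 0.97), Ctnnb1 (0.96), Kif13b (0.95), Sipa1l1 (0.95) and Polr2a (0.95). Its partner Clock had r = 0.01 with it and ranked 5943rd. None is given for Nr1d1, whose libraries fell into 2 clusters. For Dbp the 5 closest were Plekhm3 (0.95), Abca3 (0.94), Zfp608 (0.93), Dhx35 (0.93) and Sh2b2 (0.92), and Cry1 ranked 11479th of the 11709 at r = -0.74.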
